A study of Homo sapiens with 4 samples.

Results

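The mature miRNAs of the imprinted DLK1-DIO3 domain on chromosome 14 (band 14q32) were followed through a pull-down of the circular RNA circHIPK3. The members were the 60 miRNAs of this cluster listed by name, and all 60 were rows of the table of 2656 mature miRNAs. RD cells, an established line of embryonal rhabdomyosarcoma, were lysed without treatment. Lysate was incubated with biotinylated antisense probes of an EVEN or an ODD set, both against exon 2 of HIPK3, the exon that forms circHIPK3, or with control probes against the bacterial LacZ mRNA, and RNA held on streptavidin beads was sequenced beside the input. Each of the 4 groups is 1 library from 1 biological replicate of 1 cell line, and no difference below could be checked on a replicate. The intervals are 95% exact intervals for counting error only. They would be too narrow if amplified copies were counted; whether molecular identifiers removed such copies is a detail not given in the sources used here.

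The DLK1-DIO3 domain is imprinted, which means that its genes are read from only one parental chromosome. The paternal copy expresses the coding genes DLK1, RTL1 and DIO3, and the maternal copy expresses long non-coding RNAs (MEG3, MEG8 and MEG9 among them) with a long series of miRNA hairpins. Its miRNAs are known from embryonic tissue, placenta, brain and muscle precursors. A hairpin can give a miRNA from its 5′ arm (5p) and from its 3′ arm (3p), and the seed, bases 2 to 8 of the mature miRNA, does most of the target pairing.

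The hairpins lie on the plus strand of GRCh38 from MIR770 to MIR656, chr14:100852390-101066801, in 2 blocks with MIR370 between them. The proximal block, MIR493 to MIR136, holds 13 members. Its MIR431, MIR433, MIR127, MIR432 and MIR136 lie opposite an exon of RTL1, where reads of the opposite strand could be counted if strand was ignored, a setting not given in the sources used here. The distal block, MIR379 to MIR656, holds 45 members, whose hairpins lie in introns of MEG8 (MIR379 to MIR495), in introns of MIR381HG (MIR381 to MIR655), in MEG9 (MIR541 to MIR656, with MIR410 overlapping an exon) or outside these host genes in GENCODE release 29. RefSeq (GRCh38.p14) gave a mature sequence for 59 of the 60 members, with 54 different seeds.

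The results turn on a few of these miRNAs, printed 5′ to 3′ from RefSeq with the seed in capitals. The first 5 stood above the input or LacZ in a pull-down: miR-409-3p with both probe sets, miR-409-5p in LacZ, miR-493-5p in ODD, and miR-134-5p and miR-432-5p in EVEN. The last 6 had few reads or none in the circHIPK3 pull-downs.
hsa-miR-409-3p: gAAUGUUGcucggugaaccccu
hsa-miR-409-5p: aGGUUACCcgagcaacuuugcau
hsa-miR-493-5p: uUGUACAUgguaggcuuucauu
hsa-miR-134-5p: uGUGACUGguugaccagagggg
hsa-miR-432-5p: uCUUGGAGuaggucauugggugg
hsa-miR-411-5p: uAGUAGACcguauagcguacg
hsa-miR-376a-3p: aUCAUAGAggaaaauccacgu
hsa-miR-376b-3p: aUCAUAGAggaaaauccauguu
hsa-miR-376c-3p: aACAUAGAggaaauuccacgu
hsa-miR-494-3p: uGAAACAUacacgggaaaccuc
hsa-miR-369-3p: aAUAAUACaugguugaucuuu

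Sequencing gave 2987858 miRNA reads from the input, 425395 from LacZ, 426450 from ODD and 98950 from EVEN. A member with 0 reads may still have had up to 1.00 CPM (counts per 1000000 miRNA reads) in the input, 7.05 in LacZ, 7.03 in ODD and 30.3 in EVEN, the level of 3 counts. A fold given as at least takes that level and leaves out counting error in the other library, so its exact interval starts lower. The labelled cell type was checked with the skeletal muscle miRNAs miR-1-3p, miR-133a-3p, miR-133b and miR-206, which were present in all 4 libraries and summed to 62125 CPM in the input. Of 5 blood markers, miR-451a had 0 reads in every library, and the list summed to 38.5 CPM in the input, 65.8 in LacZ, 212 in EVEN and 30.5 in ODD. In EVEN miR-142-3p was at 131 CPM, miR-142-5p at 60.6 and miR-223-3p at 20.2, from 13, 6 and 2 reads. Their input levels were 6.02, 1.67 and 30.5 CPM. The 5 epithelial markers summed to 166 CPM in the input, 621 in LacZ, 273 in EVEN and 856 in ODD, of which miR-205-5p was 1.34, 489, 202 and 832 CPM. The part of these markers in the members' ratios was not tested. Of the neuronal markers miR-124-3p had 1 input read, while miR-9-5p stood at 10059 CPM.

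In the input the cluster was rare, and by library totals its sum took nearly equal shares of 3 of the libraries. The 60 members took 3785 input reads, 0.127% of the library (0.123 to 0.131). They took 552 reads or 0.130% in LacZ (0.119 to 0.141), 125 reads or 0.126% in EVEN (0.105 to 0.150) and 427 reads or 0.100% in ODD (0.0909 to 0.110). By these totals the ODD sum was 1.30-fold lower than the LacZ sum (1.14 to 1.47), a direction that turns with other scalings: the log2 ratio was -0.37 by totals, 0.91 by TMM, 1.07 by the median of ratios and 0.43 by totals that omit the 10 most abundant miRNAs. The near equality of the others moves too. The log2 ratio of LacZ over the input went from 0.03 by totals to -0.57 by TMM. That of EVEN over LacZ went from -0.04 to 0.37 by the median of ratios. These are shares of sequenced miRNA reads and say nothing of absolute amounts.

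Most members were thinly covered. In the input 14 members had at least 100 reads, 20 had 20 to 99, 21 had 1 to 19 and 5 had none. At least 1 read was found for 37 members in LacZ, 24 in ODD and 15 in EVEN, 13 members had reads in all 4 libraries, and 18 had reads in the input alone. miR-541-3p, miR-654-5p and miR-770-5p had 0 reads everywhere. The other members without an input read were miR-485-5p, with 1 read in LacZ, and miR-668-3p, with 1 read in ODD. Among the thinly read members, miR-410-3p had 2 input and 3 LacZ reads, and miR-433-3p, whose hairpin lies opposite RTL1, had 2 input reads. For 100 input reads an equal share gives 3.31 reads in EVEN, 14.3 in ODD and 14.2 in LacZ, which sets what a count of 0 can show. Of the 45 members with 0 reads in EVEN, 5 had enough input reads (130 to 200) for an equal share to exceed 3 EVEN reads.

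The other miRNAs of the region, 32 arms that are no members, were rarer still. Of these, 17 had any read, with 131 input reads in all, 1 in LacZ, 2 in EVEN and 4 in ODD. Only miR-323b-3p among them reached 20 reads in a library, with 67 input reads, 1 in LacZ, 2 in EVEN and 0 in ODD.

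The most abundant member of the input was miR-381-3p, with 364 reads or 122 CPM, which ranked 191 among all miRNAs there. It was followed by miR-376a-3p at 101 CPM, miR-654-3p at 99.7, miR-409-3p at 76.0, miR-382-5p at 74.3, miR-411-5p at 66.9, miR-376b-3p at 60.6, miR-379-5p at 59.2, miR-494-3p at 57.2 and miR-127-3p, which silences RTL1, at 54.2. No single member dominated the input, where the first 4 took 31.5% of the cluster's reads. In LacZ the first 4 members took 45.3%, in EVEN 72.0% and in ODD 77.0%.

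**Figure D1:**
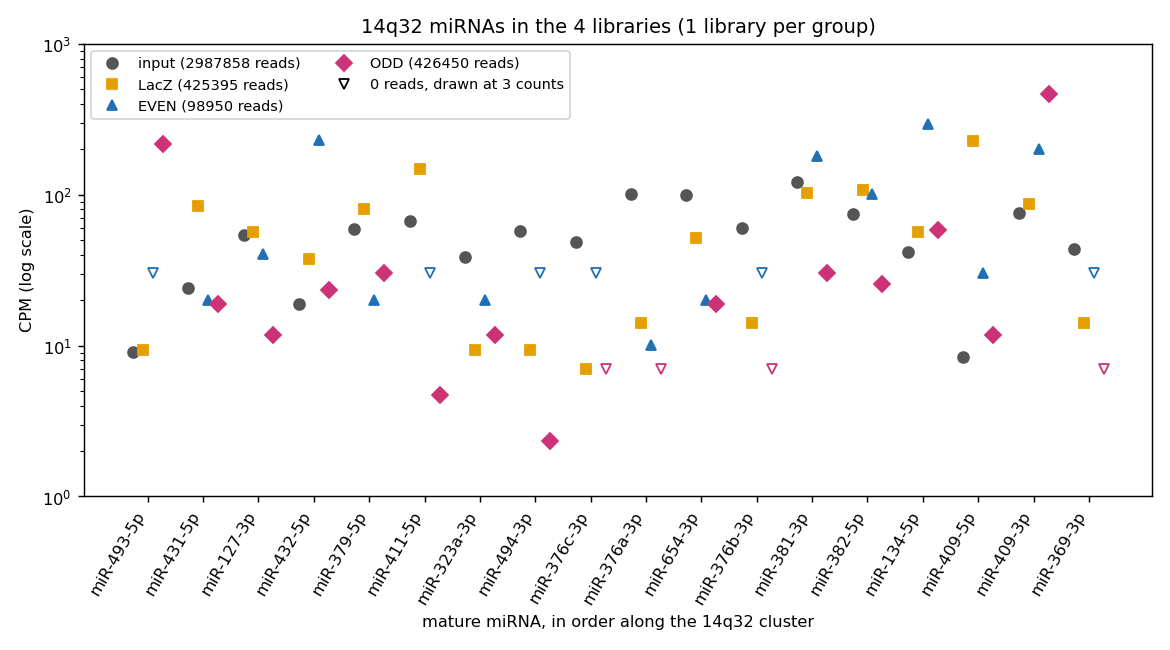
CPM (log axis) of the 18 members with at least 100 input reads or at least 20 reads in a pull-down, in the order of their hairpins along the cluster, with 1 point per library and open triangles at the level of 3 counts where a library had 0 reads. miR-493-5p and miR-409-3p are highest in ODD, miR-432-5p and miR-134-5p in EVEN, and miR-409-5p and miR-411-5p in LacZ.

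The makeup of the cluster's reads differed between all 4 libraries. This share within the cluster does not depend on how the libraries are scaled. In ODD, miR-409-3p and miR-493-5p together took 291 of 427 cluster reads, 68.2% (63.5 to 72.5), against 6.71% of the input (5.93 to 7.56), 7.43% of LacZ (5.38 to 9.94) and 16.0% of EVEN (10.1 to 23.6). These 2 miRNAs were picked after seeing that they lead ODD, so leaving them out lowers the ODD sum by that choice. Without them the other 58 members summed to 319 CPM in ODD and 1201 CPM in LacZ. That is 3.77-fold lower in ODD by totals (3.11 to 4.59), an interval that does not cover the choice. Without miR-409-5p too, which leads LacZ, the fold was 3.17 (2.60 to 3.89). The sum of the 58 was 1.54-fold lower by TMM, 1.38-fold by the median of ratios and 2.16-fold by totals that omit the 10 most abundant miRNAs. The median of the 300 miRNAs compared between ODD and LacZ was itself at a log2 ratio of -1.79 by totals.

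In EVEN the leading members were others. miR-134-5p, known from neurons where it represses Limk1 in dendrites, took 29 of 125 cluster reads, 23.2%, and miR-432-5p took 23. miR-409-3p had 20 EVEN reads and miR-381-3p 18. In LacZ the 5p arm of MIR409 led with 97 of 552 reads, 17.6%, and miR-411-5p followed with 63.

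**Figure D2:**
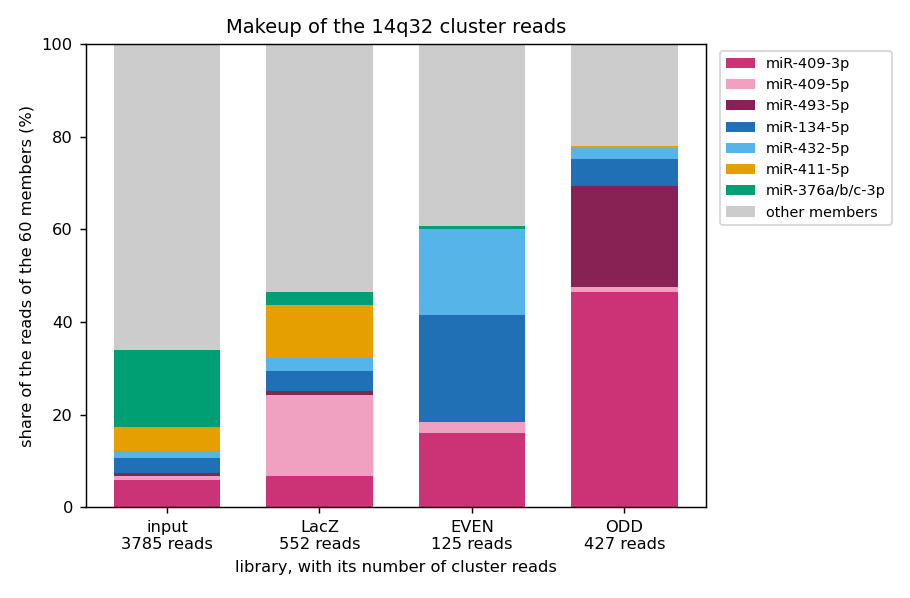
Share of the 60 members' reads (%) taken by miR-409-3p, miR-409-5p, miR-493-5p, miR-134-5p, miR-432-5p, miR-411-5p, the 3 miR-376 3p arms and all other members, 1 stacked bar per library with its number of cluster reads. miR-409-3p and miR-493-5p fill 68.2% of the ODD bar, and the miR-376 arms shrink from 16.6% of the input bar to 2.72% in LacZ, 0.8% in EVEN and 0% in ODD.

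The comparison with LacZ asks which members the circHIPK3 probes recovered beyond control probes. A miRNA entered a comparison when either library held 20 or more of its reads, and was called at 2-fold by the log2 ratio of shares with 0.5 added to each count. With EVEN probes 11 of the 60 members could be tested. Of these 3 were higher, where 9.69% of all 289 tested miRNAs were called higher, 5 were lower, where 51.2% of all were, and 3 were neither. The median log2 ratio was -0.34 over the 11 and -1.06 over all 289. The 3 other scalings (TMM, the median of ratios and totals without the 10 most abundant miRNAs) each called 4 members higher, with miR-381-3p as the fourth, and 4 lower. They called 12.5% to 15.2% of all 289 higher and 37% to 40.8% lower.

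With ODD probes 11 members could be tested, 2 higher (13% of all 300 tested), 8 lower (70.3% of all) and 1 neither, with medians of -1.72 and -1.79. The 3 other scalings called 2 to 3 members higher and 2 to 5 lower, against 19.3% to 22.7% and 32% to 49.7% of all. In each comparison 8 of the 11 passed the read minimum only through LacZ and 1 only through the circHIPK3 library, so these counts are a description of the tested members. EVEN and ODD share the LacZ library, and their values stand side by side.

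miR-409-3p, from a hairpin in an intron of MEG9 at chr14:101065300-101065378, was above LacZ with both probe sets. It had 227 reads in the input, 37 in LacZ, 20 in EVEN and 198 in ODD, or 76.0, 87.0, 202 and 464 CPM. That is 2.32-fold above LacZ with EVEN probes (1.28 to 4.11) and 5.34-fold with ODD probes (3.74 to 7.80). The LacZ level was close to the input, both circHIPK3 libraries were higher, and the EVEN interval reaches below 2-fold. Directly compared, EVEN was 2.30-fold below ODD (1.45 to 3.84).

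The opposite arm of the same hairpin, miR-409-5p, was high in LacZ. Its reads were 25 in the input, 97 in LacZ, 3 in EVEN and 5 in ODD, or 8.37, 228, 30.3 and 11.7 CPM. LacZ stood 27.3-fold above the input (17.4 to 44.2). EVEN was 7.52-fold below LacZ (2.50 to 37.1) and ODD 19.4-fold (8.05 to 61.2). Over the input EVEN stood at 3.62-fold (0.700 to 11.9) and ODD at 1.40-fold (0.419 to 3.73). Both of these intervals include equal shares. The low ratios over LacZ thus go with a high LacZ value, and the few reads do not resolve a change from the input.

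As a share of MIR409 reads the 3p arm was 90.1% in the input (85.7 to 93.5, of 252 reads), 87.0% in EVEN (66.4 to 97.2, of 23) and 97.5% in ODD (94.3 to 99.2, of 203). In LacZ it was 27.6% (20.2 to 36.0), from 37 reads of the 3p and 97 of the 5p arm. The LacZ interval does not meet that of any other library. Both arms come from 1 precursor and were counted in the same library, so library scaling does not enter this share.

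miR-493-5p, the first hairpin of the proximal block at chr14:100869060-100869148, was high in ODD alone. It had 27 reads in the input, 4 in LacZ, 0 in EVEN and 93 in ODD, or 9.04, 9.40, 0 and 218 CPM. ODD was 23.2-fold above LacZ (8.76 to 86.9) and 24.1-fold above the input (15.6 to 38.5). Against LacZ it passed the read minimum through ODD alone, the library where it is high. At the ODD share EVEN would have held 21.6 reads, and EVEN was at least 7.19-fold lower than ODD, from the level of 3 EVEN counts. The 3p arm, miR-493-3p, had 25 reads in the input, 2 in LacZ and 0 in EVEN and ODD. The 5p arm thus went from 51.9% of MIR493 reads in the input (37.6 to 66.0) to 100% in ODD (96.1 to 100), from the same 93 reads. In LacZ it was 66.7% (22.3 to 95.7, of 6 reads), too few to resolve the share in the control.

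miR-134-5p and miR-432-5p were high in EVEN. miR-134-5p had 124 reads in the input, 24 in LacZ, 29 in EVEN and 25 in ODD, or 41.5, 56.4, 293 and 58.6 CPM. EVEN was 5.19-fold above LacZ (2.92 to 9.32) and 5.00-fold above ODD (2.83 to 8.90). The other 3 libraries lay close together by their totals, and ODD over LacZ, a log2 ratio of 0.054, passed 2-fold when TMM (1.34) or the median of ratios (1.50) set the scaling.

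miR-432-5p, from the proximal block opposite RTL1, had 56 reads in the input, 16 in LacZ, 23 in EVEN and 10 in ODD, or 18.7, 37.6, 232 and 23.4 CPM. EVEN was 6.18-fold above LacZ (3.13 to 12.5), 12.4-fold above the input (7.28 to 20.5) and 9.91-fold above ODD (4.54 to 23.3). It passed the read minimum against LacZ through EVEN alone.

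EVEN and ODD could be compared for 4 members. miR-134-5p and miR-432-5p were higher in EVEN, and miR-409-3p and miR-493-5p were higher in ODD, where by totals 37.9% of all 203 tested miRNAs were higher in EVEN and 18.2% in ODD. Those background shares turn with scaling, to 9.85% and 31.5% by TMM and 9.36% and 31.5% by the median of ratios. miR-432-5p passed the read minimum only through EVEN and miR-493-5p only through ODD, the libraries where they are high. The call of each of the 4 was the same under the 3 other scalings.

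**Figure D3:**
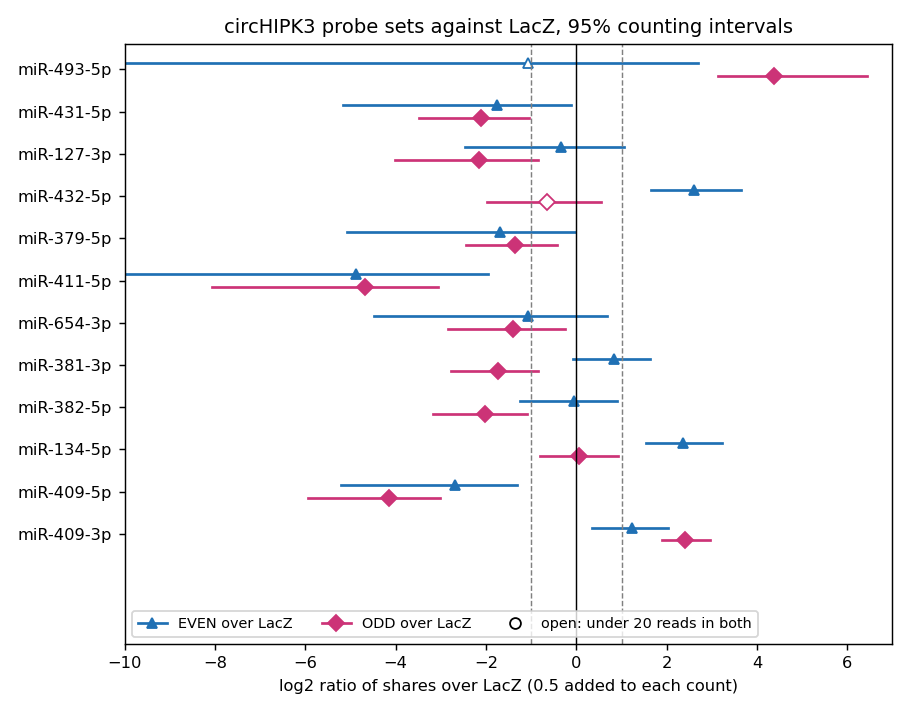
Log2 ratio of shares over LacZ (0.5 added to each count) for the 12 members tested with EVEN (triangles) or ODD probes (diamonds), with 95% counting intervals cut at the left edge where the circHIPK3 library had 0 reads, and open symbols where both libraries had under 20 reads. miR-409-3p is above 2-fold (dashed lines) with both probe sets, miR-432-5p and miR-134-5p only in EVEN and miR-493-5p only in ODD.

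At the other end, miR-411-5p was furthest below LacZ with both sets. Its hairpin is the second of the distal block. It had 200 reads in the input, 63 in LacZ, 0 in EVEN and 2 in ODD, or 66.9, 148, 0 and 4.69 CPM. It was at least 4.88-fold below LacZ in EVEN (exact interval from 3.86) and 31.6-fold in ODD (8.39 to 266). LacZ was 2.21-fold above the input (1.64 to 2.95). Against the input, miR-411-5p was lower by at least 2.21-fold in EVEN (exact interval from 1.78) and by 14.3-fold in ODD (3.90 to 119).

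miR-431-5p, known to target Pax7 in muscle satellite cells, had 72 reads in the input, 36 in LacZ, 2 in EVEN and 8 in ODD, or 24.1, 84.6, 20.2 and 18.8 CPM. It was 4.19-fold below LacZ in EVEN (1.08 to 35.9) and 4.51-fold in ODD (2.06 to 11.2). As for miR-409-5p, LacZ was the high library, 3.51-fold above the input (2.29 to 5.31). Over the input EVEN had 0.839 times the share (0.0997 to 3.14) and ODD 0.778 times (0.324 to 1.62). These intervals include equal shares but are wide, that of EVEN above all.

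miR-379-5p, the first miRNA of the distal block, was 3.95-fold below LacZ in EVEN (1.01 to 34.0, from 2 and 34 reads) and 2.62-fold in ODD (1.35 to 5.41, from 13 reads). miR-654-3p was called lower with EVEN on 2 reads against 22, 2.56-fold with an interval that includes equal shares (0.629 to 22.4), and was 2.76-fold lower in ODD (1.18 to 7.16). When the median of ratios set the scaling, both crossed 0 in ODD, to log2 ratios of 0.091 and 0.040.

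miR-127-3p, miR-381-3p and miR-382-5p were lower than LacZ in ODD and, by totals, not called in EVEN. miR-127-3p had 24 LacZ reads, 4 in EVEN and 5 in ODD, and was 4.81-fold lower in ODD (1.80 to 16.1). miR-381-3p, with 44 LacZ reads, was 1.76-fold higher in EVEN (0.956 to 3.11, from 18 reads) and 3.39-fold lower in ODD (1.79 to 6.87, from 13). Its log2 ratio of 0.84 in EVEN passed 2-fold under each other scaling, at 1.10 by TMM, 1.24 by the median of ratios and 1.25 by totals without the 10 most abundant miRNAs. miR-382-5p, with 46 LacZ reads, was 1.07-fold lower in EVEN (0.533 to 2.38, from 10) and 4.19-fold lower in ODD (2.14 to 8.98, from 11). Beside the 8 lower calls in ODD, 2 members were called lower by TMM and 2 by the median of ratios, scalings that put the median over the 300 at -0.50 and -0.35 in place of -1.79.

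LacZ against the input compares each member's share after a pull-down with control probes to its share before it, and not the amount held. Here 34 of the 60 members could be tested, 24 of them only through the input. Of the 34, 5 were higher (18.1% of all 475 tested miRNAs), 12 lower (34.3% of all) and 17 neither, with a median log2 ratio of -0.18 beside -0.44 over all. The other scalings called 3 to 5 members higher and 10 to 16 lower, against 13.3% to 21.3% and 28.2% to 51.8% of all. The counting interval excluded equal shares for all 5 higher calls and for 8 of the 12 lower ones.

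The 5 higher in LacZ were miR-409-5p, miR-431-5p and miR-411-5p, given above, with miR-370-3p and miR-432-5p. miR-370-3p, the lone arm between the blocks, had 22 reads in the input, 16 in LacZ, 5 in EVEN and 2 in ODD, and was 5.11-fold above the input in LacZ (2.51 to 10.2) and 6.86-fold in EVEN (2.03 to 18.6). miR-432-5p was 2.01-fold above the input in LacZ (1.07 to 3.55). Under TMM miR-411-5p and miR-432-5p fell under 2-fold in LacZ, to log2 ratios of 0.55 and 0.43.

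The lowest by log2 ratio were miR-136-3p (-3.63), miR-376a-3p (-2.73), miR-376c-3p (-2.58), miR-1197 (-2.55) and miR-494-3p (-2.44). miR-136-3p and miR-1197 had 0 LacZ reads against 43 and 20 in the input. The first was at least 2.04-fold lower, with an exact interval from 1.59-fold. The second had 2.85 LacZ reads to expect at an equal share, under the 3 that a count of 0 allows. miR-494-3p was 6.09-fold lower (2.33 to 22.6, from 4 and 171 reads).

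The other lower members in LacZ, chosen after their values were seen, were less far from the input. miR-323a-3p had 116 reads in the input, 4 in LacZ, 2 in EVEN and 5 in ODD, and LacZ was 4.13-fold lower (1.57 to 15.4). miR-369-3p, known to pair with the AU-rich element of TNF mRNA, had 130, 6, 0 and 0, and LacZ was 3.08-fold lower (1.38 to 8.56). miR-889-3p had 84, 4, 0 and 4, and LacZ was 2.99-fold lower (1.13 to 11.2). For miR-299-3p, miR-299-5p and miR-539-3p, with 1 to 3 LacZ reads each, the interval included equal shares.

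By totals, most of the members that stand out with circHIPK3 probes were near their input share with control probes. Over the input, LacZ had 1.14 times the share of miR-409-3p (0.786 to 1.63) and 1.36 times that of miR-134-5p (0.839 to 2.12). For miR-493-5p it was 1.04 times, from 4 LacZ reads and with a wide interval (0.265 to 2.99). The abundant miR-381-3p and miR-127-3p were likewise near the input, at 0.849 (0.606 to 1.16) and 1.04 (0.648 to 1.60). By TMM these log2 ratios were lower, at -0.39 for miR-409-3p, -0.40 for miR-493-5p and -0.13 for miR-134-5p. For miR-381-3p and miR-127-3p they were -0.82 and -0.52. miR-432-5p, higher in LacZ too, differs from these.

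The 3 miR-376 3p arms, whose precursors are known substrates of A-to-I editing in the brain, had few reads in every pull-down. Their hairpins lie at chr14:101039690-101040849 in the distal block, miR-376a-3p comes from 2 hairpins, and it differs from miR-376b-3p and from miR-376c-3p by an edit distance of 2, so the split of reads among them depends on a counting rule not given in the sources used here. miR-376a-3p had 302 reads in the input, 6 in LacZ, 1 in EVEN and 0 in ODD. miR-376b-3p had 181, 6, 0 and 0, and miR-376c-3p had 146, 3, 0 and 0.

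Together the 3 arms had 629 reads in the input, 15 in LacZ, 1 in EVEN and 0 in ODD. At the input share LacZ would have held 89.6 reads, EVEN 20.8 and ODD 89.8. The sum was 5.97-fold below the input in LacZ (3.59 to 10.7) and 20.8-fold in EVEN (3.73 to 824), and at least 29.9-fold in ODD. The exact interval in ODD starts at 24.3-fold. All 3 pull-downs, the LacZ control included, were low.

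Against the input 34 members could be tested with EVEN, of which 6 were higher (18.3% of all 464 tested) and 17 lower (52.2% of all). With ODD 3 of 34 were higher (13% of all 468) and 23 lower (68.6% of all). In both comparisons 31 of the 34 passed only through the input. Over the 3 other scalings 5 to 9 members were higher and 11 to 21 lower in EVEN, against 15.5% to 24.4% and 39.9% to 60.8% of all. In ODD 6 were higher and 14 to 16 lower, against 18.8% to 23.1% and 50.6% to 57.7% of all, so the 23 lower calls depend on scaling. miR-127-3p, for one, moved from a log2 ratio of -2.08 to -0.91 by the median of ratios, and miR-323a-3p from -1.60 to -0.43. The counting interval excluded equal shares for 4 of the 6 higher and 7 of the 17 lower calls in EVEN, and for 2 of the 3 higher and 18 of the 23 lower calls in ODD. Most of the lower calls in EVEN against the input thus do not exceed counting error.

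Besides miR-432-5p and miR-370-3p, the members higher than the input in EVEN were miR-134-5p at 7.06-fold (4.54 to 10.7), miR-409-3p at 2.66-fold (1.59 to 4.21), miR-409-5p at 3.62-fold (0.700 to 11.9, from 3 reads) and miR-485-3p at 2.01-fold (0.233 to 7.93, from 2 reads). In ODD miR-409-3p was 6.11-fold (5.03 to 7.43) and miR-485-3p 2.10-fold higher (0.878 to 4.54, from 9 reads), beside miR-493-5p. miR-134-5p, miR-432-5p and miR-409-5p passed 2-fold over the input in ODD under each of the 3 other scalings. The intervals of miR-485-3p include equal shares in both.

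The 5 lowest in EVEN were miR-411-5p, miR-376b-3p, miR-494-3p, miR-376c-3p and miR-369-3p, all at 0 reads, from 200, 181, 171, 146 and 130 input reads. They were at least 2.21-fold, 2.00-fold, 1.89-fold, 1.61-fold and 1.44-fold lower, with exact intervals from 1.78, 1.61, 1.52, 1.29 and 1.15. In ODD the lowest were miR-376a-3p, miR-376b-3p, miR-376c-3p and miR-369-3p, at least 14.4-fold, 8.61-fold, 6.95-fold and 6.18-fold lower. Their exact intervals start at 11.6-fold, 6.93-fold, 5.58-fold and 4.96-fold. miR-494-3p followed, at 24.4-fold lower (4.32 to 970, from 1 read). In the deeper ODD library the same 0 reads give the firmer bound.

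MIR299 and MIR369 are the other hairpins with at least 20 input reads from each arm. MIR369 gave 77.8% of its input reads from the 3p arm (70.8 to 83.9, of 167), with 6 reads from the 3p and 5 from the 5p arm in LacZ, and miR-369-5p alone, with 2 reads, in ODD. MIR299 gave 42.7% from the 3p arm in the input (32.7 to 53.2, of 96), 1 of 4 reads in LacZ and 0 of 2 in ODD. EVEN had 0 reads from either hairpin. These few reads do not resolve an arm share in the pull-downs.

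The distal block took most of the cluster's reads in every library. The proximal block took 12.1% of the cluster's reads in the input (11.1 to 13.2), 15.9% in LacZ (13.0 to 19.3), 23.2% in EVEN (16.1 to 31.6) and 27.6% in ODD (23.4 to 32.1). In EVEN 23 of the 29 proximal reads were miR-432-5p, and in ODD 93 of the 118 were miR-493-5p. The larger proximal share in these libraries is that of 1 miRNA in each.

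Base composition moved with recovery, though a few miRNAs made up much of some groups. Members were grouped by the G and C content of the mature miRNA, with limits of 40% and 50% set with these data in view. The 17 members under 40% took 26.8% of the cluster's reads in the input (25.4 to 28.2), 7.79% in LacZ (5.69 to 10.4), 0.8% in EVEN (0.0203 to 4.38) and 23.0% in ODD (19.0 to 27.2). Of the 98 ODD reads in this group 93 were miR-493-5p, and the other 16 members took 1.17% of the ODD reads (0.381 to 2.71). The group holds miR-376a-3p, miR-376b-3p, miR-376c-3p, miR-369-3p and miR-539-3p. Of its 1013 input reads, 629 were the 3 miR-376 3p arms.

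The 20 members at 50% or more took 29.6% of the cluster's reads in the input (28.1 to 31.1), 38.8% in LacZ (34.7 to 43.0), 77.6% in EVEN (69.3 to 84.6) and 63.9% in ODD (59.2 to 68.5), where 198 of the 273 reads were miR-409-3p. With miR-409-3p and miR-493-5p left out of the group and of the cluster's reads, a choice made after seeing the data, members at 50% or more took 25.3% in the input (23.9 to 26.8), 34.6% in LacZ (30.5 to 38.9), 73.3% in EVEN (63.8 to 81.5) and 55.1% in ODD (46.4 to 63.7). Of the 77 EVEN reads behind that 73.3%, 29 were miR-134-5p and 23 miR-432-5p, which stayed in the group. With miR-409-3p and miR-493-5p left out, members under 40% took 27.9%, 7.63%, 0.952% and 3.68% in the same order. The 20 members at 50% or more include miR-134-5p, miR-432-5p, miR-409-3p and miR-370-3p. The 22 members between the limits, with miR-409-5p and miR-411-5p, took 43.6%, 53.4%, 21.6% and 12.9% in the same order.

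Across the 34 tested members the G and C content and the log2 ratio over the input had a Pearson correlation of 0.48 (Spearman 0.56) in LacZ, 0.65 (0.67) in EVEN and 0.43 (0.47) in ODD. The points share their libraries, and those with 0 reads in a pull-down are placed by the 0.5 added. Over all tested miRNAs with a sequence, 434, 425 and 428 of them, the values were 0.42 (0.43), 0.49 (0.51) and 0.48 (0.50). The relation was thus present among miRNAs at large and in the LacZ control, and its part in the ratios of single members was not tested.

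**Figure D4:**
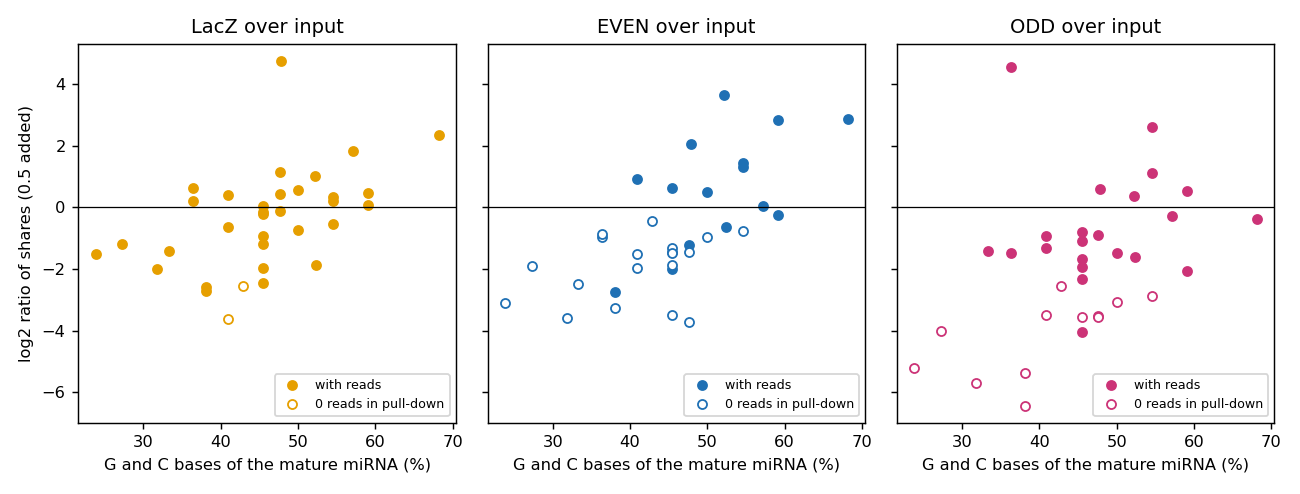
Log2 ratio of shares over the input (0.5 added to each count) against the G and C content (%) of the mature miRNA for the 34 tested members, 1 panel per pull-down, with open circles for 0 reads in the pull-down. Points rise to the right in each panel, and the point near the top left of the ODD panel is miR-493-5p.

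Of the 54 seeds, 5 were shared by members. miR-485-3p and miR-539-3p share UCAUACA, and had 30 and 56 reads in the input, 5 and 3 in LacZ, 2 and 0 in EVEN and 9 and 0 in ODD. In ODD miR-539-3p was at least 2.66-fold below the input. miR-376a-3p and miR-376b-3p share UCAUAGA and were both low in each pull-down. The pairs miR-154-3p with miR-487a-3p, miR-379-3p with miR-411-3p, and miR-541-3p with miR-654-5p had at most 8 input reads each and none in a pull-down. Outside the cluster, miR-362-3p has the seed of miR-329-3p, ACACACC, with 1900 reads in the input, 26 in LacZ, 0 in EVEN and 3 in ODD, while miR-329-3p had 39, 7, 2 and 0.

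Exon 2 of HIPK3 (chr11:33286413-33287511, plus strand, 1099 bases) was searched on its sense strand, the joined ends of the circle included, for the complement of each member's seed. Of 59 members searched 6 had a match (10.2%), beside 175 of all 2367 miRNAs with a sequence (7.39%). Each had 1 match of 7 bases, written here as DNA. miR-379-5p matches GTCTACC, counted from base 21 of the exon, miR-382-5p ACAACTT from base 223, miR-381-3p CTTGTAT from base 845, miR-485-3p and miR-539-3p TGTATGA from base 847, and miR-495-3p GTTTGTT from base 1065. The matches at 845 and 847 overlap. Among the first 1099 bases of 17639 protein-coding transcripts, the longest of each gene, these motifs occur in 4.06%, 7.37%, 3.16%, 5.45% and 4.98%.

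By totals none of these 6 was at least 2-fold above LacZ with either probe set, but miR-381-3p passed 2-fold in EVEN under each of the 3 other scalings. miR-379-5p, miR-381-3p and miR-382-5p have the ratios given above, miR-485-3p and miR-539-3p had too few reads for a call, and miR-495-3p had 6 input reads and none in a pull-down. miR-409-3p, miR-493-5p, miR-134-5p and miR-432-5p had no match of this kind in the exon. A match of 7 letters is a description of the sequence and does not show a site in use.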

How the data were processed

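Per the labels' protocols, the small RNA was prepared with a QIAseq kit for miRNA and read single-end. For each of 4 libraries the authors deposited raw counts of mature miRNAs, and also CPM, which equal each count over its library total to within 1.46e-11 CPM. GRCh38 is the build per the submitters' processing notes; the aligner, miRNA annotation and treatment of strand, multi-mapping reads and molecular identifiers are steps not given in the sources used here. Ratios are (count + 0.5) over the library total. A miRNA was tested where either library held 20 or more of its reads, and called at 2-fold. Folds are ratios of shares without the 0.5, with exact conditional intervals, and a library at 0 reads gives a bound from 3 counts. Depth runs from 98950 to 2987858 reads, and EVEN has the widest intervals.

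With 1 library a group no test was made. The steps were tested on simulated data. Members and lists were chosen with earlier results of these data known. Named members are the 10 most abundant in the input. In each of 6 comparisons those at least 2-fold higher and the 5 lowest are named. Hairpins with 20 input reads from both arms and shared seeds are named too. Others are named for few or no reads, beside a sequence match, or as chosen after their values were seen. The other settings tried were scaling by TMM (edgeR 4.0.16), by the median of ratios (DESeq2 1.42.0) or by totals that omit the 10 most abundant miRNAs, read minimums of 1 and of 100, a pseudocount of 5, 1 added to deposited CPM, and calling at 4-fold. Other steps used Python 3.11.15, pandas 2.3.3, numpy 2.4.6, scipy 1.17.1, matplotlib 3.10.9 and R 4.3.3. Sequences and positions are from RefSeq (GRCh38.p14); MIR370, MIR381, MIR412 and MIR432 were placed by their mature arms.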

Additional observations from a re-analysis of the deposited data

How the results depend on the processing

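No paired analysis was possible because each group is 1 library, and for the same reason no replicate could be left out. Depth limits EVEN most. Of members against LacZ, the 3 higher in EVEN became 0 at a minimum of 100 reads, and 4 under each of the 3 other scalings (with miR-381-3p), at a minimum of 1 read and with 5 added to each count. The 5 lower became 15 at a minimum of 1 read, 0 at 100 reads, 2 with 5 added to each count and 2 at 4-fold. The 2 higher in ODD became 4 at a minimum of 1 read and 1 at 100 reads. The 8 lower in ODD became 2 by TMM, 2 by the median of ratios, 5 without the 10 most abundant miRNAs, 27 at a minimum of 1 read, 0 at 100 reads and 5 at 4-fold. Of members in LacZ against the input, the 5 higher became 3 by TMM, 3 by the median of ratios, 9 at a minimum of 1 read, 1 at 100 reads and 2 at 4-fold. The 12 lower became 19 at a minimum of 1 read, 6 at 100 reads, 4 with 5 added and 5 at 4-fold. A minimum changes how many members are tested. The cause of the other moves was not tested. The shares called over all miRNAs at the other minimums, with 5 added or at 4-fold are not given here. Member counts at those settings thus have no background beside them and are not read as a result about the members.

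Without the 10 most abundant miRNAs in the totals, the cluster's share was 0.227% of the input, 0.350% of EVEN, 0.364% of ODD and 0.271% of LacZ. Without its most abundant member in each library it was 0.115%, 0.0970%, 0.0537% and 0.107%. The summed log2 ratio of EVEN over LacZ (-0.04) became 0.37 by the median of ratios, 0.37 without the 10 most abundant miRNAs and -0.36 without its leading member. For ODD over LacZ (-0.37) it turned to 0.91 by TMM, 1.07 by the median of ratios and 0.43 without the 10 most abundant miRNAs. It was -1.17 without its leading member, and -1.66 without miR-409-3p, miR-409-5p and miR-493-5p, a choice made after seeing the data. For LacZ over the input (0.03) it was -0.57, -0.25 and 0.26 in the same 3 scalings and -0.23 without its leading member. For EVEN over ODD (0.34) it turned to -0.69, -0.71 and -0.058, and was 0.98 without its leading member.

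Of 128 ratios of single members, 3 called ones changed sign, all by the median of ratios: miR-379-5p (0.091) and miR-654-3p (0.040) in ODD over LacZ, and miR-369-5p (0.069) in ODD over the input.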
